A study of Mus musculus with 12 samples.

Results

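The 9 immediate early genes Fos, Fosb, Jun, Junb, Atf3, Egr1, Nr4a1, Ier2 and Dusp1 were followed in the adrenal of mice with extra Ftz-F1 copies and of their wild-type littermates. They were chosen by symbol, as transcripts known to respond acutely to ACTH and stress, and with earlier results of these data known. Each has 1 probe, so 9 of the 25344 probes on the array belong to them, and 9 of the 17882 named genes that could be tested. Ftz-F1, or Nr5a1, is the gene of SF-1, the orphan nuclear receptor on which formation of the adrenal cortex depends.

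RNA from 6 transgenic mice of line #56, labelled YAC, was set against that of 6 wild-type littermates on 2-colour arrays, with each transgenic mouse paired with 1 littermate of its own sex and age. Pairs are named by the number of the transgenic mouse. Pairs 1, 3 and 5 were 4 months old with 2 transgene copies, and pairs 11, 13 and 15 were 10 days old with 1 copy. Pair 5 and pair 15 were female and the other 4 pairs male. All transgenic mice came from a single line, and age and copy number changed together, so neither can be told apart from the other. A pair ratio holds 1 transgenic and 1 wild-type animal, and it does not say which of them was high or low. The arrays give no level within a mouse, so the labelled tissue was not checked against its markers by level.

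Each pair had 2 dye-exchanged arrays, 12 in all. Values are log2 ratios of the channels in the sign in which they were deposited, after correction of the dye trend, and a pair value is the mean of its 2 arrays. A positive value means a higher level in the transgenic mouse only if the deposited ratio is transgenic over wild type, and neither labels nor files state this. With the inverse ratio every sign turns round. Between 4.30% and 6.59% of spots on an array were empty. By their descriptions the arrays with the transgenic sample in Cy5 and those with it in Cy3 form 2 batches, so dye and batch cannot be told apart. Nr5a1 itself had pair values of -0.46, 0.11 and -0.22 at 4 months and -0.57, -0.65 and -0.79 at 10 days. The labels do not say whether its probe detects the transcript of the transgene.

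Immediate early genes are switched on within minutes of a stimulus, from transcription factors already present in the cell, and their transcripts decay quickly. In the adrenal cortex ACTH acts through its receptor, cAMP and protein kinase A, and induces several of them together with the genes of steroid synthesis, while in chromaffin cells of the medulla they respond to nerve input. Fos and Fosb pair with Jun or Junb to form AP-1. Atf3 is a stress-induced repressor of the ATF/CREB family, Egr1 a zinc finger transcription factor, Nr4a1 (Nur77) an orphan nuclear receptor, and Ier2 a small nuclear protein. Dusp1 dephosphorylates MAP kinases and limits the signals that induce the other genes.

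The promoters of 4 of them are shown because the cAMP response element is the sequence through which CREB acts on such genes. Fos, Nr4a1 and Dusp1 carry its half-site more than once, and Jun does not carry it. Each run is 300 bases of RefSeq sequence of GRCm38.p6, 5′ to 3′ on the strand of the gene, from 250 bases before to 50 bases after its start. The windows are chr12:85473640-85473939 (+) for Fos, chr15:101266596-101266895 (+) for Nr4a1, chr17:26508423-26508722 (-) for Dusp1 and chr4:95052173-95052472 (-) for Jun. For Nr4a1 the start used lies inside the annotated gene, which runs from 101253902 to 101274795. Capitals mark the half-site TGACG on either strand (CGTCA on the other), with the overlapping pair in Dusp1 forming the full element TGACGTCA.
Fos: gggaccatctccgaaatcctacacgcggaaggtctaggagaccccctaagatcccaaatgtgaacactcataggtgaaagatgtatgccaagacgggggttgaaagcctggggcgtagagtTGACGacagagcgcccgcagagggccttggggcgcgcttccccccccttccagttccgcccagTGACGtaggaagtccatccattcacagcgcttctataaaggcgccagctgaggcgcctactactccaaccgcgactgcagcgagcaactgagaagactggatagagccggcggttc
Nr4a1: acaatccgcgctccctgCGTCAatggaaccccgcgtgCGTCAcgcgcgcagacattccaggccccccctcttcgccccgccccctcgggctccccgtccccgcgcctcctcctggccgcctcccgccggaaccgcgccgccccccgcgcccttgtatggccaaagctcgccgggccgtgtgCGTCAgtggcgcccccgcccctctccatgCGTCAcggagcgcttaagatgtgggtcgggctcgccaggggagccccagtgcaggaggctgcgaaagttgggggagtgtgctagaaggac
Dusp1: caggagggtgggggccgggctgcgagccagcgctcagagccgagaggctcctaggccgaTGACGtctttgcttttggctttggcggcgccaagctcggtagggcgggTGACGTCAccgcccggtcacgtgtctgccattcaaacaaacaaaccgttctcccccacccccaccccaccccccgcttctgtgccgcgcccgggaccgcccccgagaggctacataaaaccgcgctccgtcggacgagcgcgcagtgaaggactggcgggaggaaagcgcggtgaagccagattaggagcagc
Jun: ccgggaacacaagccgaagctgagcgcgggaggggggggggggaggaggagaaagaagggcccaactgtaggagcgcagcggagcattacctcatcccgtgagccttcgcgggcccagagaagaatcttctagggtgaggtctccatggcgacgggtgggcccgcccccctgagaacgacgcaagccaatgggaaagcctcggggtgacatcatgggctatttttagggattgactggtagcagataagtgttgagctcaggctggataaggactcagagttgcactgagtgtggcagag

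The half-site was found in 6 of the 7 members with a promoter in the RefSeq table, against 20.8% of 32851 promoter windows, and at least 2 of them in 3 of the 7, against 5.01%. It starts 129 and 66 bases before the start of Fos, at 233, 213, 69 and 40 bases in Nr4a1 and at 191, 143 and 140 bases in Dusp1. Fosb has 1 at 60 bases, Junb 1 at 106 and Atf3 1 at 7. The full element TGACGTCA stood in Dusp1 alone of the 7, against 1.79% of windows. These windows held no AP-1 site (TGACTCA, in 5.20% of windows), no CArG box (1.63%), no SF-1 site (CAAGGTCA, 1.56%), no NR4A site (AAAGGTCA, 1.51%) and no EGR site (GCGTGGGCG, 0.612%), read on both strands. TATAAA was present in 2 of them, against 13.6% of windows: Fos, 33 bases before the start, and Junb, at 0 bases, on the start used. A match describes the letters of the window and not the use of a site. Only exact matches were sought, so sites with other letters or outside the window were not counted. Egr1 and Ier2 are named only.

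The members differed widely between pairs, and on both sides of 0. At 4 months their median was -0.25 in pair 1, 0.52 in pair 3 and -0.89 in pair 5. At 10 days it was -1.23 in pair 11, 0.43 in pair 13 and 0.19 in pair 15. Each age thus held pairs on both sides of 0, while the median of all features lay within 0.01 of 0 in every pair.

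Counts past a size of 0.5 with both arrays of the pair on the same side were read against the same share of all features, given in parentheses. In pair 5, 7 of 9 members were negative past this size (3.54% of all features) and 0 positive (2.63%). In pair 1 it was 4 of 8 negative (6.1%) and 0 positive (5.81%), with Junb empty on both arrays. Pair 3 had 5 of 9 positive (5.29%) and 1 negative (8.08%). In pair 11, 6 of 9 were negative (7.08%) and 0 positive (5.54%). Pair 13 had 3 of 9 positive (1.91%) and 0 negative (2.24%), and pair 15 had 3 positive (4.84%) and 1 negative (3.75%).

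**Figure D1:**
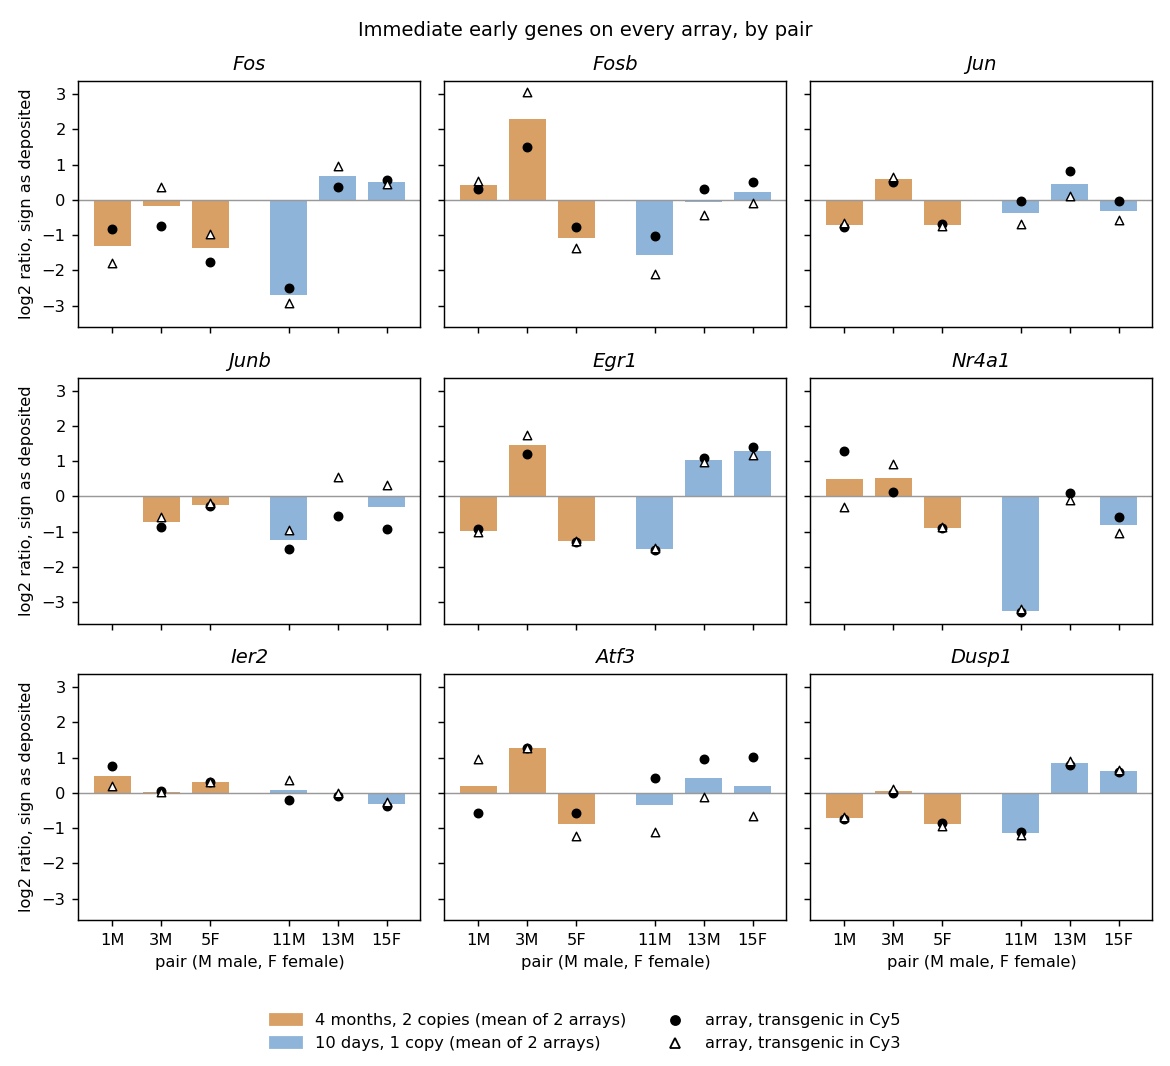
Log2 ratio (sign as deposited) of the 9 members in each of the 6 pairs, with bars for the pair value, filled circles and open triangles for arrays with the transgenic sample labelled Cy5 and Cy3, and pairs 1, 3 and 5 at 4 months left of pairs 11, 13 and 15 at 10 days. Egr1 lay at -0.97, 1.47 and -1.28 at 4 months and at -1.50, 1.03 and 1.28 at 10 days, while Ier2 stayed between -0.32 and 0.49.

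Of the AP-1 genes, Fos was at -1.30, -0.18 and -1.37 in pairs 1, 3 and 5 at 4 months, and at -2.70, 0.67 and 0.52 in pairs 11, 13 and 15 at 10 days. All 3 values were negative at 4 months, and at 10 days pair 11 stood apart on the negative side, so the ranges of the ages overlapped. The value of pair 11 is a 6.50-fold difference between its mice, with -2.49 on the array whose transgenic sample carried Cy5 and -2.91 on the other. Array values are given in this order throughout. Pair 3 alone had arrays on opposite sides, at -0.73 and 0.37.

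Fosb, a partner of the Jun proteins like Fos, was at 0.41, 2.28 and -1.08 in pairs 1, 3 and 5 at 4 months and at -1.56, -0.06 and 0.22 in pairs 11, 13 and 15 at 10 days. Its extremes were pair 3, where the arrays gave 1.51 and 3.05, and pair 11, where they gave -1.03 and -2.10. Fosb also had the lowest spot signal of the members, at the 35.8th percentile of probes.

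Jun varied less than the Fos genes, at -0.71, 0.59 and -0.71 at 4 months and -0.36, 0.46 and -0.30 at 10 days. Both arrays lay on the same side in all 6 pairs, and the ages overlapped. Junb was at -0.73 and -0.23 in pairs 3 and 5 at 4 months and at -1.23, -0.00 and -0.30 in pairs 11, 13 and 15 at 10 days. It was the member with no pair value clearly above 0. Its arrays disagreed in sign in pair 13, with -0.56 and 0.55, and in pair 15, with -0.92 and 0.31.

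Atf3 was at 0.20, 1.27 and -0.89 at 4 months and at -0.34, 0.43 and 0.19 at 10 days. Its arrays fell on the same side in 2 of 6 pairs only, pair 3 with 1.27 on both arrays and pair 5 with -0.58 and -1.21. In pair 15 they gave 1.02 and -0.65, so most of its pair values rest on arrays that oppose each other.

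Egr1 lay far from 0 in all 6 pairs, on both sides of it. At 4 months its arrays gave -0.92 and -1.01 in pair 1, 1.19 and 1.74 in pair 3, and -1.30 and -1.26 in pair 5. At 10 days they gave -1.53 and -1.46 in pair 11, 1.08 and 0.98 in pair 13, and 1.40 and 1.17 in pair 15. The dye-exchanged arrays of each pair lay close together, and each pair lay nearly 1 or more on the log2 scale from 0. The pair values were -0.97, 1.47 and -1.28 at 4 months and -1.50, 1.03 and 1.28 at 10 days, which is 3 negative and 3 positive pairs with both signs in each age.

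Nr4a1 had the most extreme value of any member, -3.24 in pair 11, a 9.45-fold difference between the mice. The arrays of this pair gave -3.29 and -3.19. Elsewhere at 10 days it was at -0.01 in pair 13 and -0.81 in pair 15, and at 4 months it was at 0.49, 0.52 and -0.88 in pairs 1, 3 and 5. Pair 11 lay outside the range of the other 5 pairs. The value of pair 1 came from arrays at 1.28 and -0.31. As deposited these were 1.57 and 0, so the negative sign came from the correction of the dye trend.

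Ier2 kept within a narrow range, at 0.49, 0.03 and 0.31 at 4 months and 0.07, -0.04 and -0.32 at 10 days. It was positive in 3 of 3 pairs at 4 months and in 1 of 3 at 10 days, with overlapping ranges, and it had the smallest spread of the 9.

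Dusp1, the phosphatase, had the closest arrays of the members. At 4 months they gave -0.75 and -0.69 in pair 1, -0.01 and 0.10 in pair 3, and -0.85 and -0.93 in pair 5. At 10 days they gave -1.11 and -1.19 in pair 11, 0.79 and 0.91 in pair 13, and 0.59 and 0.65 in pair 15. The pair values of -0.72, 0.04 and -0.89 at 4 months and -1.15, 0.85 and 0.62 at 10 days had the sign of Egr1 in 6 of 6 pairs.

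The spread of the members over pairs was set beside that of the technical arrays. Since the members were chosen with earlier results of these data known, the comparison with all features is a description and not a test. For each gene the SD of the 6 pair values was compared with the SD of the difference of the 2 arrays divided by 2, which has the same technical error. The median SD over pairs was 0.836 for the 9 members and 0.221 for all features, and the median SD of the array differences was 0.254 and 0.162. The median ratio of these SDs was 2.91 in the members and 1.36 in all features. Dusp1 was at 19.5, with 0.84 over pairs and 0.043 between arrays, and Egr1 at 10.2, with 1.39 and 0.14. Nr4a1 was at 3.58, Fos at 3.27, Jun at 2.91, Fosb at 2.80, Junb at 1.91, Ier2 at 1.55 and Atf3 at 1.23. A ratio at least as large was seen in 0.0465% of all features for Dusp1 and 0.516% for Egr1. For the other members this share ran from 8.69% for Nr4a1 to 56.8% for Atf3, so ratios of their size were common.

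An SD over pairs at least as large as that of the gene was seen in 0.316% of all features for Nr4a1 (SD 1.41), 0.330% for Egr1, 0.400% for Fosb (SD 1.34) and 0.446% for Fos (SD 1.30). It was seen in 1.83% for Dusp1, 2.67% for Atf3, 5.46% for Jun, 8.38% for Junb and 31.5% for Ier2. Of the 53 member pair values 40 had both arrays on the same side, 75.5%, against 51.2% of the pair values of all features. Values of both signs were found in 8 of 9 members, 88.9%, and in 89.5% of all features, so mixed signs as such were not particular to them. The spot signals of Egr1 and Nr4a1 were at the 98.5th and 98.8th percentile. Spot signal is 1 summary per probe over both channels of the 6 arrays stored at full precision. On these Cy3 labelled the transgenic mouse, so the other dye orientation did not enter it. Spot signal is a lower bound, since a factor common to both channels was lost.

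**Figure D2:**
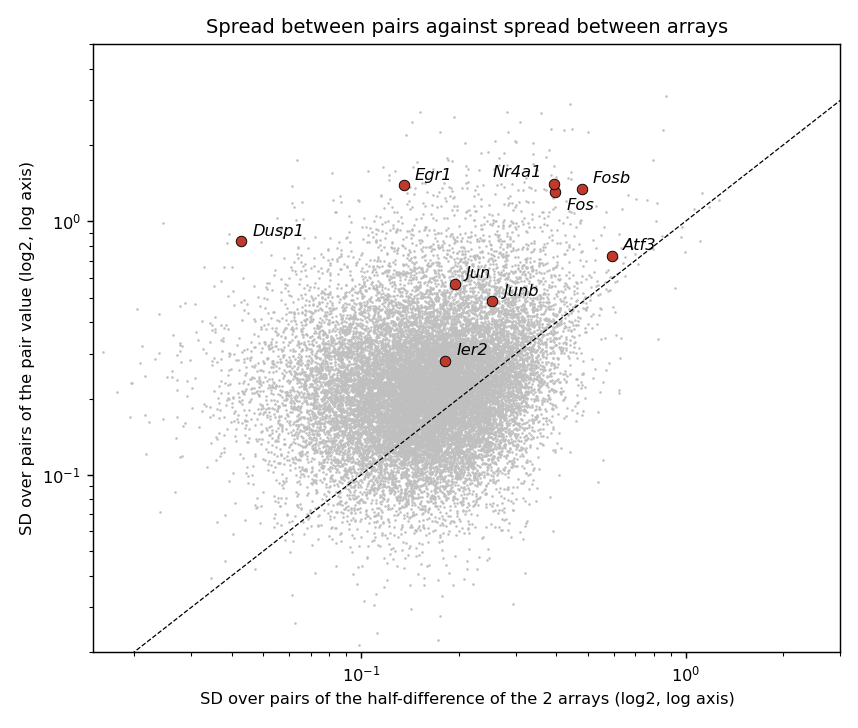
SD of the pair values of a gene against the SD of its array differences divided by 2 (both log2), on log axes, with the 9 members in red and all features in grey. Of the members, Dusp1 and Egr1 lie farthest above the dashed line of equal SDs, at ratios of 19.5 and 10.2, and Atf3 lies near it at 1.23.

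The question whether the transgenic mice of either age differed from their littermates was tested with limma over 21513 features. No member passed an adjusted p of 0.05 in any comparison. At 4 months 0.0% of all features passed, with 2646 at an unadjusted p under 0.05, and at 10 days 0.0% passed, with 1794. Over all 6 pairs 0.0558% passed, which is 12 features with 3221 at an unadjusted p under 0.05, and none of them was a member.

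At 4 months the means ran from -0.95 ± 0.67 for Fos to 0.54 ± 1.68 for Fosb (SD, n = 3 pairs), with 4 of 9 positive and a median of -0.26. The smallest adjusted p was that of Ier2, at 0.28 (SE 0.13, adjusted p = 0.424 in limma), which was positive in 3 of 3 pairs. Dusp1 was at -0.52 ± 0.50, Jun at -0.28 ± 0.75, Egr1 at -0.26 ± 1.50, Nr4a1 at 0.04 ± 0.80 and Atf3 at 0.19 ± 1.08 (SD, n = 3 pairs). For Egr1, Nr4a1, Fosb, Jun and Atf3 the SD exceeded the mean. Junb, with 2 pairs, was at -0.48 ± 0.35.

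At 10 days the means ran from -1.35 ± 1.68 for Nr4a1 to 0.27 ± 1.54 for Egr1 (SD, n = 3 pairs), with 3 of 9 positive and a median of -0.10. Nr4a1 had the smallest adjusted p (SE 0.55, adjusted p = 0.566 in limma), and its mean was -0.41 without pair 11. Fos was at -0.50 ± 1.90, Fosb at -0.47 ± 0.96, Junb at -0.51 ± 0.64 and Dusp1 at 0.11 ± 1.10 (SD, n = 3 pairs). Each of these SDs also exceeded its mean.

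**Figure D3:**
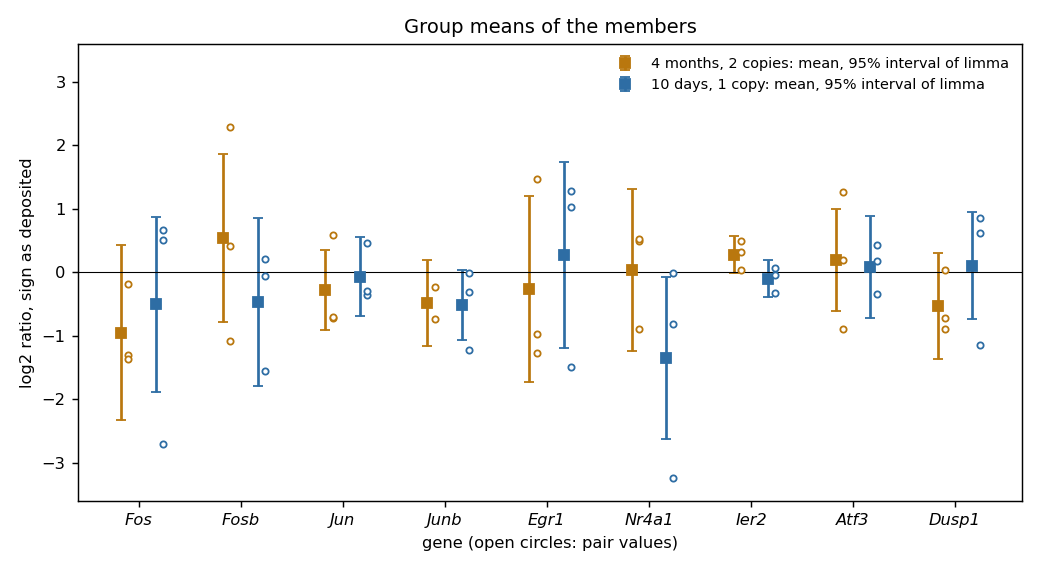
Mean log2 ratio (sign as deposited) of each member at 4 months, left, and 10 days, right, with the 95% interval from limma, and pair values as open circles. Nr4a1 at 10 days has the lowest mean, -1.35, with pair 11 at -3.24 far below the other circles.

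Over all 6 pairs Junb had the smallest adjusted p of the members, at -0.50 (SE 0.18, adjusted p = 0.287 in limma), with 2 pairs at 4 months and 3 at 10 days. It was negative in 5 of 5 pairs, with pair 13 at -0.00 to 2 decimals, and its mean was -0.32 without pair 11. Using Cy5-labelled transgenic samples alone it was at -0.78 (adjusted p = 0.0214), and using Cy3-labelled ones alone at -0.21 (adjusted p = 0.585). The dye effect of a probe does not cancel there, and 3439 features passed with Cy5 alone and 1411 with Cy3 alone. With both orientations Fos was at -0.73 (SE 0.42), Nr4a1 at -0.65 (SE 0.39) and Egr1 at 0.01 (SE 0.45). The median over the 9 members was -0.17, against -0.01 over all features.

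The difference between the ages, 4 months minus 10 days, was called for 0.0% of features, with 982 at an unadjusted p under 0.05, and for no member (smallest adjusted p = 0.933 in limma). Nr4a1 had a difference of 1.39 with a 95% interval from -0.41 to 3.20, Fosb of 1.01 with -0.86 to 2.88, and Fos of -0.45 with -2.39 to 1.50. The intervals of Ier2 (-0.04 to 0.79) and Junb (-0.85 to 0.91) stayed within 1 of 0 on the log2 scale, and those of the other 7 members reached past it on at least 1 side.

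Females minus males, with 2 and 4 pairs, gave 0.0% of 21504 features, with 1238 at an unadjusted p under 0.05, and no member (smallest adjusted p = 0.918 in limma, for Atf3). Atf3 averaged -0.35 in female pairs and 0.39 in male pairs, a difference of -0.74 with a 95% interval from -1.86 to 0.37. Egr1 averaged 0.00 in female pairs and 0.01 in male pairs, with an interval of the difference from -2.36 to 2.35. Both sexes held pairs in which Egr1 was negative and pairs in which it was positive.

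How the members varied with each other is described over the 6 pairs, in which the genes share arrays and animals. Dusp1 had Pearson correlations of 0.97 with Fos and 0.91 with Egr1, and Fos one of 0.90 with Egr1. Fosb correlated with Atf3 at 0.91 and with Nr4a1 at 0.78. Against the mean of the other members, Egr1 was at 0.88, Fos at 0.82, Atf3 at 0.82, Fosb at 0.81, Dusp1 at 0.78, Nr4a1 at 0.70, Jun at 0.69 and Ier2 at -0.43. Fos and Ier2 had opposite signs in all 6 pairs. Junb was left out of this mean for its empty pair.

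The mean of the other 8 members was -0.26, 0.75 and -0.85 in pairs 1, 3 and 5 and -1.35, 0.42 and 0.17 in pairs 11, 13 and 15. The 5 genes most like it, of 5023 genes with an SD over pairs of at least 0.3, were Slc30a5 (r = 0.985), a zinc transporter gene, Gadd45b (0.980), a stress-inducible growth arrest gene, Ccnl1 (0.976), which encodes cyclin L1, Mettl5 (0.969), an rRNA methyltransferase gene, and Synpr (0.968), which encodes synaptoporin. An r over 0.9 was reached by 56 of the candidates, 1.11%.

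Gadd45b is itself in the list of other immediate early effectors read below. It was at -0.52, 1.49 and -0.96 at 4 months and -1.48, 0.61 and 0.40 at 10 days, with arrays on the same side in 6 of 6 pairs. Ccnl1 was at -0.44, 0.64 and -1.18 at 4 months and -1.33, 0.32 and 0.40 at 10 days, also with 6 of 6. Slc30a5 and Mettl5 had arrays on the same side in 3 of 6 pairs, so their likeness rests on less even arrays. The 3 genes most unlike the mean were Apobec1 (r = -0.955), Prelid1 (-0.959) and Nt5c (-0.972).

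**Figure D4:**
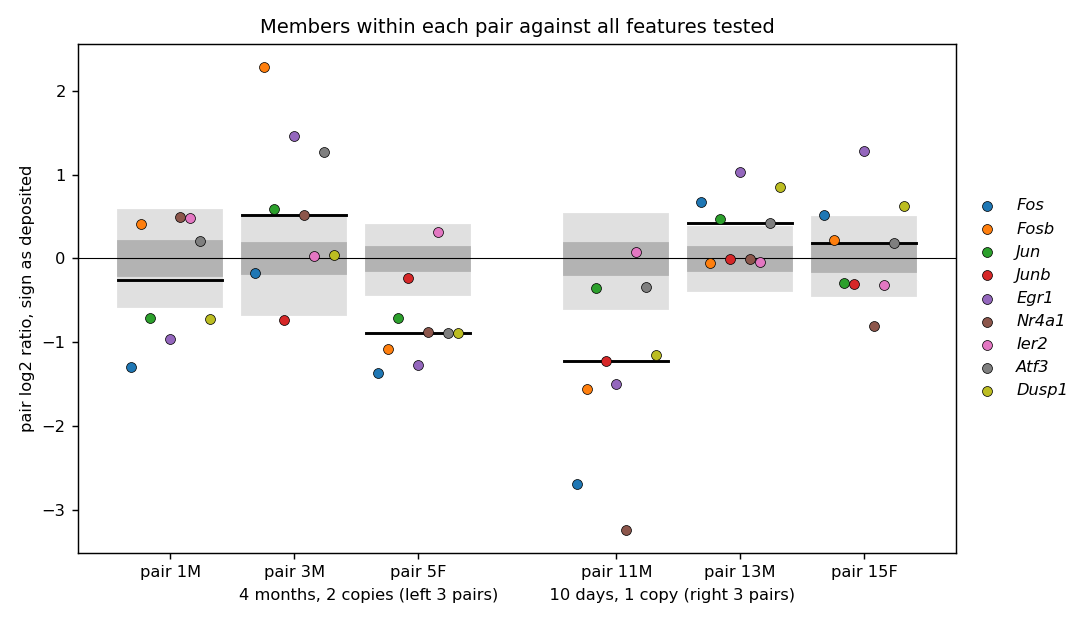
Log2 ratios (sign as deposited) of the members by pair beside all features tested (light bars, 5th to 95th percentile, dark bars, the middle quartiles), with black lines at the member medians, pairs of 4 months left of those of 10 days. The member median is -0.89 in pair 5 and -1.23 in pair 11, below the median of all features, and 0.52 in pair 3, above it.

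Other genes of the same response were read from lists, chosen like the members with earlier results of these data known. In limma none of 17 other immediate early transcription factors, 22 effectors, 17 upstream regulators, 15 feedback regulators and 10 heat shock genes passed in any of the 5 comparisons. The median SD over pairs was 0.381 for the transcription factors and 0.448 for the effectors, against 0.221 for all features and 0.203 for the upstream regulators. An SD of at least 1 was reached by 4 of 9 members, 3 of 17 transcription factors, 5 of 22 effectors and 0 of 17 upstream regulators, against 1.06% of all features. Wide spread was not particular to these genes: lymphocyte markers reached it in 3 of 7 (median SD 0.882), macrophage markers in 3 of 9 (0.820), adipocyte markers in 3 of 8 (0.483) and genes of ACTH response and steroid synthesis in 2 of 11 (0.417).

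Among the other transcription factors, Crem, whose short form ICER represses cAMP-responsive genes, was at 0.87, 1.15 and -0.51 at 4 months and -2.62, -0.38 and -1.05 at 10 days. Its arrays lay on the same side in 6 of 6 pairs, and its 10-day mean was -1.35 (SE 0.43, adjusted p = 0.476 in limma). Klf2, a Krüppel-like factor, was negative in 3 of 3 pairs at 4 months, at -0.77, -1.32 and -0.80 (mean -0.96, SE 0.22, adjusted p = 0.233), and at -0.79, 0.03 and 0.43 at 10 days. Jund, an AP-1 gene that is less inducible, was at 0.61, 0.73 and 0.11 at 4 months and 1.08, -0.01 and -0.19 at 10 days.

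3 further genes, named after their values were seen, had large values in several pairs. Btg2, an antiproliferative gene, was at -1.57, 0.14 and -1.11 at 4 months and -1.28, 0.54 and 0.69 at 10 days. Csrnp1, a nuclear factor gene, was at -0.30, 1.84 and -2.20 at 4 months and -1.07, 0.20 and 0.01 at 10 days. Nfil3, a bZIP repressor gene, was at -0.01, 2.27 and -0.70 at 4 months and -1.80, 0.07 and -0.07 at 10 days. Pair 11 was negative for each of them.

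Of the effectors, Ptgs2, which encodes cyclooxygenase 2, was at -0.54, 0.19 and -0.08 at 4 months and -0.72, -0.34 and -0.43 at 10 days (10-day mean -0.50, SE 0.15, adjusted p = 0.462 in limma). Sik1, a kinase gene induced by ACTH, was at 0.25, -1.16 and -1.68 at 4 months and -0.63, 2.43 and -1.03 at 10 days, and was named after its values were seen. Its one positive value past 0.5 was in pair 13. By pair, effectors past 0.5 with both arrays on the same side were counted, positive and negative, with the shares of all features in parentheses. In pair 1 they numbered 5 and 6 of 21 (5.81% and 6.1%). Pair 3 had 6 and 3 of 22 (5.29% and 8.08%), and pair 5 had 0 and 7 (2.63% and 3.54%). At 10 days pair 11 had 0 and 12 of 22 (5.54% and 7.08%). Pair 13 had 5 and 0 (1.91% and 2.24%), and pair 15 had 3 and 2 (4.84% and 3.75%).

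The genes that lie upstream stayed closer to 0. Creb1, which encodes the factor that binds the cAMP response element, was at -0.43, -0.11 and -0.04 at 4 months and -0.14, -0.01 and 0.13 at 10 days, and was named for that role after its values were seen. Atf1, its close relative, was at -0.52, -0.49 and -0.50 at 4 months and -0.33, 0.39 and 0.11 at 10 days (4-month mean -0.50, SE 0.14, adjusted p = 0.274 in limma). Prkaca, the catalytic subunit gene of protein kinase A, was at 0.06, -0.65 and -0.05 at 4 months and -0.25, -0.15 and -0.35 at 10 days.

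Feedback and heat shock genes gave a mixed picture. Dusp4, a phosphatase of the same family as Dusp1, was at -0.38, -0.30 and -0.19 at 4 months and -0.83, -0.07 and 0.10 at 10 days. Hspa1b, an inducible Hsp70 gene named after its values were seen, was at -3.84, 0.62 and 0.76 at 4 months and -1.29, 0.64 and 0.75 at 10 days, with arrays on the same side in 6 of 6 pairs. Pair 1 and pair 11, both negative for Hspa1b, were also negative for Fos, Egr1 and Dusp1, but pair 5 was positive for Hspa1b and negative for them.

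Markers of other cells lay far from 0 in some of these pairs, and fewer cells of a type cannot be told apart from less RNA per cell in whole glands. In pair 3, 7 of 7 lymphocyte markers (-5.18 to -0.04, median -1.98) and 8 of 9 macrophage markers (-6.25 to 0.94, median -1.37) were negative, with the members at a median of 0.52. In pair 11, 9 of 9 hepatocyte markers were positive (0.03 to 6.73, median 0.82, the highest Alb), with the members at -1.23. In pair 15, 7 of 8 adipocyte markers were positive (-0.12 to 5.13, median 0.83) and 8 of 9 macrophage markers (-0.09 to 1.34, median 0.64). The part of these markers in the members' values was not tested.

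Markers also differed in the remaining pairs. Pair 5, in which 7 members were negative past 0.5, had medians of -0.07 for lymphocytes, -0.00 for hepatocytes, 0.18 for adipocytes and -0.50 for macrophages, of which 8 of 9 were negative (-1.90 to 0.16). In pair 13 Alb was at 1.70 and Ahsg at 0.89, but 4 of 9 hepatocyte markers were negative and their median was 0.04. Lymphocyte markers in pair 1 were 3 positive and 3 negative, from -0.29 (Cd79a) to 1.31 (Cd79b), with a median of 0.12. Macrophage markers in pair 1 were 3 positive and 5 negative, from -1.16 (C1qc) to 0.74 (Cd14), with a median of -0.18. Erythroid markers had a median of -0.92 in pair 13, where 5 of 6 were negative. Chromaffin cell markers, of a cell type that itself expresses immediate early genes, had medians of 0.28, 0.77 and 0.68 in pairs 1, 3 and 5 and -0.01, 0.68 and 0.74 in pairs 11, 13 and 15. They were lowest in pairs 11 and 1, while pair 5, with a member median of -0.89, had 0.68. In pair 11 the chromaffin markers ran from -0.63 (Dbh) to 1.89 (Npy), with 4 of 9 positive. Over all 6 pairs 1 of 9 chromaffin markers was called, on the positive side, against 0.0558% of all features. The part of chromaffin cells in the members' values was not tested. Medians of the other lists ran from -0.39 to 0.22 for endothelial cells, from -0.27 to 0.26 for the capsule, fibroblasts and smooth muscle, from -0.09 to 0.22 for kidney and from -0.40 to 0.38 for neutrophils.

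**Figure D5:**
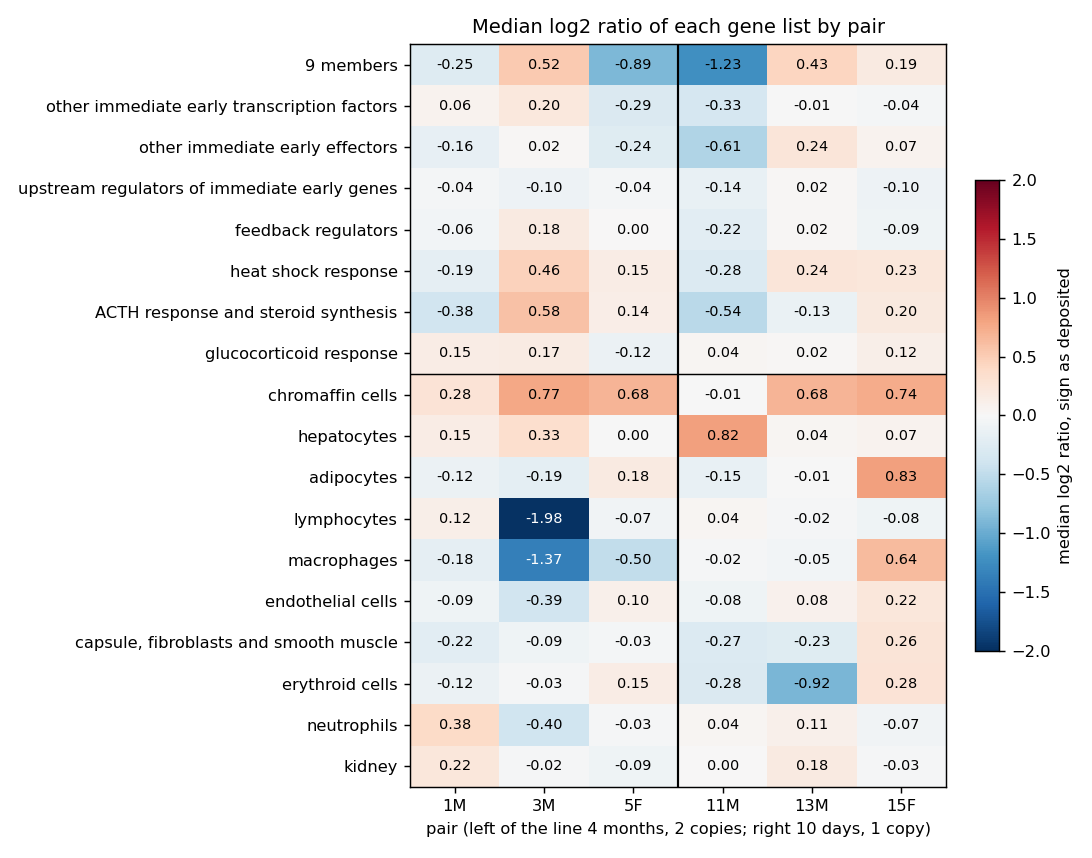
Median log2 ratio (sign as deposited) of the members and of each other gene list in each pair, pairs 1, 3 and 5 (4 months) left of pairs 11, 13 and 15 (10 days). The member row runs from -1.23 in pair 11 to 0.52 in pair 3, and the largest marker median is that of lymphocytes in pair 3, -1.98.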

How the data were processed

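Adrenal RNA of 6 pairs of a transgenic mouse and a wild-type littermate was measured on 12 two-colour arrays, 2 dye-exchanged arrays per pair. The authors deposited log2 ratios for 25344 spots per array, not centred: array medians were 0.74 to 1.50 where Cy5 labelled the transgenic sample and -0.68 to -0.22 where Cy3 did. The base was found from the values, since 2 raised to them gave ratios of whole numbers for 100% of spots on the 6 arrays stored at full precision, within a relative tolerance of 1e-13. Neither labels nor files name the scanner, the normalization, any background subtraction or the direction of the ratio. No background signal is known, and precision is limited by how many pairs of mice there are.

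Each array was corrected by loess (span 0.3) on the spot signal recovered from those whole numbers, because the deposited values followed it. The signal thus came from the 6 full-precision arrays alone, where Cy3 labelled the transgenic mouse, and served for all 12 arrays. Whole numbers were taken in lowest terms, so a factor common to both channels was lost and the signal is a lower bound. The 75th percentile over those arrays was used. Once the average per dye orientation had been subtracted, correlations over probes were 0.18 to 0.65 within pairs, while arrays of different pairs gave -0.31 to 0.14, so columns were not turned. As deposited, the correlations within pairs were -0.50 to -0.09 and between pairs of opposite dye -0.62 to -0.24. Of the probes, 21082 had a single gene in the platform table, 30 several and 4232 none, and 20456 were matched to RefSeq by gene ID. A pair value needed both arrays and was their mean, and probes of a gene were averaged.

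Features with at least 2 of 3 pairs in each group were tested with limma (version 3.58.1, R 4.3.3), fitting each group mean, with moderated statistics on 4 residual and 3.85 prior degrees of freedom, two-sided tests and Benjamini-Hochberg adjustment at 0.05. A sex term was added for the female minus male difference. The fit was tested on simulated data. A pair of animals counts as 1 replicate and its arrays as technical repeats.

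The 9 members and all lists were chosen with earlier results of these data known. From other lists, up to 2 genes of each sign with the largest mean among those of one sign in every pair of a comparison could be named, and any other gene is said to be named after its values were seen. Alternatives were array medians alone, values as deposited, another loess span, the brightest probe of a gene, either dye orientation alone, no dim probes, an ordinary linear model, sex in the model, a single mean and each pair left out.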

Additional observations from a re-analysis of the deposited data

How the results depend on the processing

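Of 530 test values of the members under alternatives that kept both dye orientations, 0 passed the threshold, the smallest adjusted p was 0.217 and 48 had another sign. On a single orientation, 1 of 90 passed, Junb over all 6 pairs with the transgenic sample in Cy5, and 11 had another sign. On single orientations the dye effect of a probe does not cancel, and the calls over all features were 915 (Cy5) and 288 (Cy3) at 4 months, 222 and 31 at 10 days and 3439 and 1411 over all 6 pairs. Over all 6 pairs the 12 calls became 0 with array medians alone or with sex in the model, 1 with an ordinary linear model and 38 with a single mean. Leaving out a pair gave 0 to 15 calls there (0 without pair 1, 3, 13 or 15, 4 without pair 11), 0 to 5 at 4 months (5 without pair 5), 0 to 1 at 10 days (1 without pair 11) and 0 to 3 for females minus males (3 without pair 15), where an ordinary linear model gave 1. The difference between the ages had 0 calls in every alternative. The members' pair values past 0.5 on the negative side numbered 19, and 12 in the values as deposited, and no pair value past 0.5 changed sign there or with array medians alone, though 21 and 9 of 53 pair values moved by more than the spread of the arrays. Of 618 values of genes from the other lists, 4 passed, all on a single orientation (Klf2 and Hspa5 in Cy5, Atf1 and Elk4 in Cy3). Junb could not be tested at 4 months without pair 3 or pair 5. Every value is a ratio within a transgenic and wild-type pair. No paired analysis was possible because the age groups share no mouse numbers, so it was the ages that could not be paired. The cause of these changes was not tested.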

Other observations

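Genes of ACTH response and steroid synthesis were not called in any of the 5 comparisons (0 of 11 tested), and their medians by pair were -0.38, 0.58 and 0.14 at 4 months (pairs 1, 3 and 5) and -0.54, -0.13 and 0.20 at 10 days (pairs 11, 13 and 15). Cyp11a1, which encodes the cholesterol side-chain cleavage enzyme, was at 1.14, 1.05 and 0.31 at 4 months and -1.01, 0.02 and 0.80 at 10 days (4-month mean 0.83, SE 0.31, adjusted p = 0.353 in limma). Mc2r, the ACTH receptor gene, was at -0.69, 0.31 and 0.24 at 4 months and -0.34, -0.13 and -0.01 at 10 days. Nr0b1, which encodes the SF-1 repressor DAX-1, was at -0.92, -0.54 and -0.33 at 4 months and -0.58, -0.21 and 0.20 at 10 days (4-month mean -0.60, SE 0.17, adjusted p = 0.276). Cyp21a1, the steroid 21-hydroxylase gene, named after its values were seen, was at -1.41, 1.64 and 0.75 at 4 months and -3.18, -3.96 and 0.25 at 10 days, with arrays on the same side in 6 of 6 pairs.

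Glucocorticoid response genes had medians by pair between -0.12 and 0.17, and 0 of 10 were called. Fkbp5, a chaperone gene induced by the glucocorticoid receptor, was at 0.16, 0.36 and 0.76 at 4 months and -0.17, 0.36 and 0.02 at 10 days (4-month mean 0.43, SE 0.15, adjusted p = 0.329 in limma). Pdk4, a pyruvate dehydrogenase kinase gene, was positive in 6 of 6 pairs, at 0.75, 0.07 and 0.07 at 4 months and 0.14, 0.86 and 1.88 at 10 days (mean 0.63, SE 0.21, adjusted p = 0.236), with its highest value in pair 15, where adipocyte markers had a median of 0.83. The part of those cells in this value was not tested.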
